A study of Mus musculus with 18 samples.

Results

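The antisense noncoding genes of the mouse are described here in knee cartilage after rupture of the anterior cruciate ligament (ACL). Members were all genes typed as antisense in the GENCODE M21 annotation of GRCm38, except Dnm3os, whose estimated counts, summed over transcripts, reached 10 or more in 3 or more libraries. This kept 1392 of 2958 annotated antisense genes, among 21525 kept genes of 49130 that could be summed. For comparison, 1472 of 5854 lincRNA genes and 16198 of 21951 protein-coding genes passed the same filter. The filter used no group, but a gene that is above it in 1 group of 3 libraries and silent elsewhere passes as well, so the members that passed are not a sample of all antisense genes.

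Total RNA depleted of ribosomal RNA was sequenced in 18 libraries of cartilage from male C57Bl/6J mice that were 12 weeks old when assigned to a group. ACL-ruptured mice received a single mechanical load to the right knee under isoflurane with buprenorphine as analgesic, and 3 libraries each were made from injured (right) and contralateral (left) knees at day 1 and at day 7 post injury. The other 6 libraries were from knees of naïve mice, which were not loaded and were collected with the day 7 groups per their labels. Every library was a pool of several knees. The labels do not say which libraries share mice, and left and right knees of the same mice went into separate pools, so the libraries are not all independent animals, n counts pools, and the p-values measure the spread between pools. The study's own test allowed for libraries from the same pool of mice through an estimated correlation. That could not be done here without knowing the pools, and the tests below treat all pools as independent. The tissue was cartilage detached from the femoral condyle, which the text deposited with the series limits to the medial side. Totals of estimated counts ranged from 16074762 to 41794005 per library.

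An antisense gene lies on the strand opposite another gene, overlapping it or starting beside it. Many begin close to the start of a coding gene and are transcribed away from it, since many mammalian promoters initiate on both strands, and others lie inside an intron or run into the 3′ end of their neighbour. Some, such as Airn and Kcnq1ot1, silence imprinted genes in cis, and for most no role is known. Their RNAs are usually scarce and often stay in the nucleus.

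The coding gene on the opposite strand, called the partner below, was the one with the largest exonic and then the largest total overlap, or else the one with the nearest start within 5000 bases. Of the 1392 members, 1316 overlapped a coding gene, 32 began near a coding start without overlapping it and 44 had no coding partner by this rule. Members that lay wholly inside the coding gene were the most frequent (721), followed by members whose 5′ end overlapped the 5′ end of the coding gene (316), by members that overlapped 3′ end to 3′ end (233) and by members that spanned the coding gene (46). The median member had 1456 exonic bases and a mean of 0.676 normalised read counts scaled to library size (CPM), and 485 members averaged 1 CPM or more and 20 averaged 10 CPM or more. For most members a single library therefore holds few counts. Exons of 755 members overlapped those of a gene on the other strand over less than 50% of their length, those of 127 members over 50% or more, and those of 510 not at all. The kit marks the strand, but the strand setting of the pseudo-alignment is not given in the sources used here, so reads of a member and of its partner may not have been told apart where exons overlap or where unspliced RNA of the partner covers the member. Values of members that overlap a partner are uncertain for these reasons, in exons or in introns. Counts for members without exonic overlap are given beside the main ones, and these too may hold unspliced RNA of the partner.

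Sequences are shown for 3 members that rose at day 7 and start beside a coding gene, so that the shared start region can be read, for the coding gene that starts beside one of them, and for 1 member that fell. They are RefSeq windows of GRCm38.p6 from 250 bases before to 50 bases after the annotated start, written 5′ to 3′ on the gene's own strand. Capitals mark each match to the GC box letters GGGCGG or to the AP-1 letters TGANTCA, on either strand, and overlapping copies were counted apart. C130021I20Rik (chr2:33640943-33641242, plus strand) starts opposite Lmx1b, Gm26633 (chr7:79053274-79053573, minus strand) opposite Acan (chr7:79052976-79053275, plus strand), C230034O21Rik (chr3:38886912-38887211, minus strand) opposite Fat4, and Gm16299 (chr19:53825163-53825462, minus strand) lies inside Rbm20.
C130021I20Rik: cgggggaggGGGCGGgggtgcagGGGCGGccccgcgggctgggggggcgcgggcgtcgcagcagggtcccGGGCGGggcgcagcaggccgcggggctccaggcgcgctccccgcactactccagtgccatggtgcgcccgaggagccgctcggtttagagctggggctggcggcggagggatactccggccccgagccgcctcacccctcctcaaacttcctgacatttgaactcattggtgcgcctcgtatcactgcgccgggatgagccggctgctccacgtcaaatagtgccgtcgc
Gm26633: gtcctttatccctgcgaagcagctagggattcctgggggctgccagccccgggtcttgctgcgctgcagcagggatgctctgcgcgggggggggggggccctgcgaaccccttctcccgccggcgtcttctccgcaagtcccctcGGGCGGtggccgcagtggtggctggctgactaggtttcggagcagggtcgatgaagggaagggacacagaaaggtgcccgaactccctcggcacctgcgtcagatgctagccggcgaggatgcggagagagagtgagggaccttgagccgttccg
Acan: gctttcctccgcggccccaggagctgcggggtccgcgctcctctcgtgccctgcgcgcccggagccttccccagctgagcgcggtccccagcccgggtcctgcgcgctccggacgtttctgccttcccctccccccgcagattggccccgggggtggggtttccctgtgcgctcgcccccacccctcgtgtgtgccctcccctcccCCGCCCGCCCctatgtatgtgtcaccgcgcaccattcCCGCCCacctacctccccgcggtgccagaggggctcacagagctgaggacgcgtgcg
C230034O21Rik: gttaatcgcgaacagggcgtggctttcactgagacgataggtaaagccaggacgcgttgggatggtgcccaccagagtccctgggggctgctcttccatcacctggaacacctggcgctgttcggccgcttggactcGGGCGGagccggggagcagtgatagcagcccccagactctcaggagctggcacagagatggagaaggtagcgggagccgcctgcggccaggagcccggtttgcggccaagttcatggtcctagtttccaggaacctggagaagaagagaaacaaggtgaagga
Gm16299: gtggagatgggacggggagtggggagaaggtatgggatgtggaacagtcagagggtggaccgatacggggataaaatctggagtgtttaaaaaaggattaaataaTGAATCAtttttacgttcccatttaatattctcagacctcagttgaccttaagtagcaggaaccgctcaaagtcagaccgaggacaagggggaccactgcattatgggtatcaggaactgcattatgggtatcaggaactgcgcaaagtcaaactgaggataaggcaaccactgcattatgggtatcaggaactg

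RefSeq places the start of Gm26633 97 bases from that of Acan, the start of C130021I20Rik 95 bases from that of Lmx1b and the start of C230034O21Rik 21 bases from that of Fat4, and the windows of member and partner share 2, 194 and 78 bases. The window of C130021I20Rik held 3 GC boxes and 34 CpG dinucleotides, that of Gm26633 1 and 23, that of C230034O21Rik 1 and 17, and that of Gm16299 no GC box, 7 CpG and 1 AP-1 match. Of the members called higher at day 7, as described below, 9 of 22 had a window in the table, and 7 of the 9 (77.8%) held a GC box, with a median of 19 CpG. Of the members called lower, 79 of 204 had a window, of which 9 (11.4%) held a GC box, with a median of 4 CpG. The members called higher against naïve libraries lie mostly at 5′ ends of coding genes and those called lower mostly inside them. Among lower members that overlap 5′ end to 5′ end 3 of 13 windows (23.1%) held a GC box, with a median of 9 CpG. The same letters were in 31.2% of the 516 windows of members and in 35.9% of the 27025 windows of all genes in the table, which had a median of 7 CpG. AP-1 letters were in 1 of 9 windows of members that rose (11.1%), in 12 of 79 of members that fell (15.2%) and in 7.93% of all windows. The TEAD letters GGAATG were in 0 of 9, in 9 of 79 (11.4%) and in 14.6% of all windows, and the TATA box letters TATAAA in 0 of 9, in 11 of 79 (13.9%) and in 14.2%. These are descriptions of letters in a window and of few windows, with no test.

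Before any comparison, 1 library stood apart. In day 7 contralateral replicate 1 its own 10 highest genes held 42.5% of counts, whereas the top 10 of each other library held 16.6% to 29.8%, and 564 members reached 10 counts there, the lowest number of all libraries. The study's methods mention that an ACL library with poor read mapping was dropped. Which one is not given in the sources used here, so whether it is among these 18 is not known, and no library was left out on that ground. Contrasts of the remaining groups were fitted on 15 libraries, leaving that group out, and the injured against contralateral comparison of day 7 is given with and without this library.

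The libraries carry the label chondrocyte. All 12 chondrocyte markers listed were measured, with Col2a1, the fibrillar collagen of cartilage, the most abundant at a mean of 3235 CPM in naïve libraries, Acan, the large cartilage proteoglycan, at 372 CPM and Sox9, the chondrocyte transcription factor, at 21.4 CPM. Markers of other cells were measured too and none was at 0. Haemoglobin Hbb-bs averaged 14104 CPM, the marrow neutrophil gene Ngp 2496 CPM and the fast muscle myosin Myh4 2081 CPM in naïve libraries.

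Members as a class took a smaller share of the RNA at day 7 post injury. They held 0.243% (lowest), 0.290% (median) and 0.341% (highest) of the estimated counts of kept genes in naïve libraries, and 0.185%, 0.184% and 0.190% in the 3 injured libraries at day 7. The day 7 injured libraries were all below every naïve library. At day 1 the share was 0.300%, 0.348% and 0.332% in injured and 0.347%, 0.326% and 0.280% in contralateral knees, within or just above the naïve range. At day 7 the contralateral knees gave 0.168%, 0.269% and 0.264%, and the first of these is the library that stood apart, so that without it the injured libraries were below both others. The share is a proportion, and in bulk tissue fewer cells that make a transcript and less RNA per cell cannot be told apart.

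**Figure D1:**
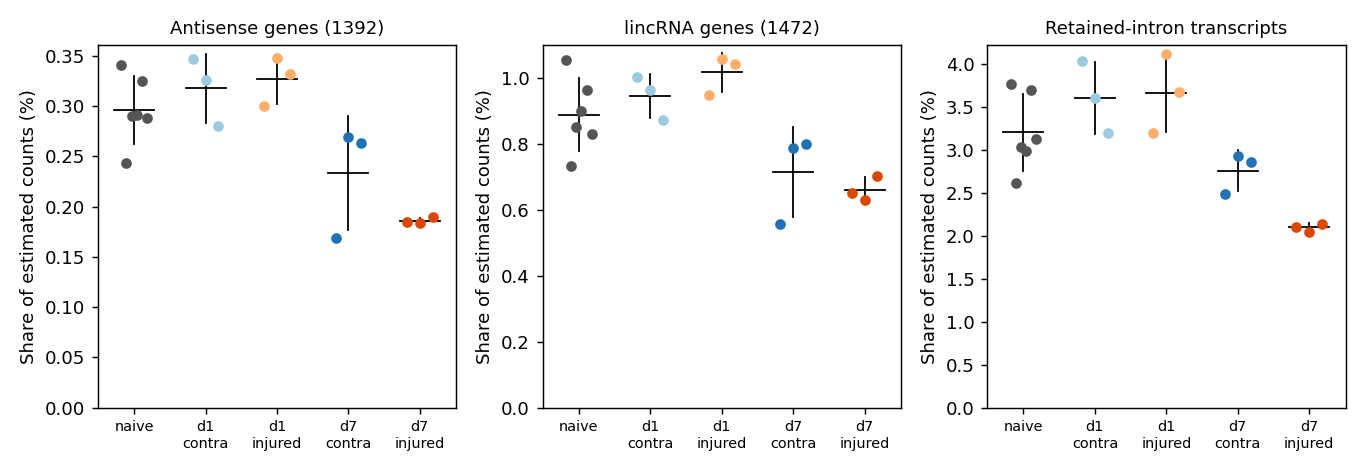
Share of all estimated counts (%, y axis) taken by the 1392 antisense genes, by the 1472 lincRNA genes and by transcripts annotated as retained introns, with 1 point per library, a horizontal line for the group mean and a vertical line for ± 1 SD; "contra" is the contralateral knee, d1 and d7 the days post injury. All 3 day 7 injured libraries lie below every naïve library for antisense genes (0.184% to 0.190% against 0.243% to 0.341%), and the other classes fall alongside.

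Other RNA classes that are rich in unspliced or nuclear transcripts moved with the members. These shares are of all counts matched to the annotation and include genes that were not kept. Transcripts annotated as retained introns held 2.62% to 3.78% of counts in naïve and 2.05% to 2.14% in day 7 injured libraries. For lincRNA genes the shares were 0.735% to 1.06% and 0.630% to 0.703%, and for sense-intronic genes 0.0471% to 0.0694% and 0.0330% to 0.0347%. At the same time the 10 most abundant genes rose from 19.6% to 25.9% of counts in naïve to 26.4% to 29.8% in day 7 injured libraries. The part that these shares have in the results below was not tested.

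The first question is which members differed between injured and naïve knees at day 7. After TMM normalization and edgeR's quasi-likelihood test over all 21525 genes with Benjamini-Hochberg adjustment, with calls made where the FDR was 0.05 or less and the change 1.5-fold or more, 22 members were called higher and 204 lower. Over all genes tested 10.3% were called higher and 6.02% lower, so the members held fewer calls upward (1.58%) and more downward (14.7%) than the table as a whole. The median log2 fold change was -0.48 over the members and -0.04 over all genes, and 1159 of the 1392 members lay below 0. lincRNA genes gave nearly the same picture, with 20 higher and 213 lower of 1472 and a median of -0.50, whereas protein-coding genes had 2124 higher and 609 lower of 16198 and a median of 0.05. Set side by side by level, members under 1 CPM had 11 higher and 82 lower (9.04%) of 907 and a median of -0.49. Coding genes under 1 CPM had 132 higher and 178 lower (8.26%) of 2154 and a median of -0.33. Members at 1 CPM or more had 11 higher and 122 lower of 485 and a median of -0.47. Coding genes between 1 and 10 CPM had 761 higher and 288 lower of 4418 and a median of 0.04. No test compared these classes with each other.

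**Figure D2:**
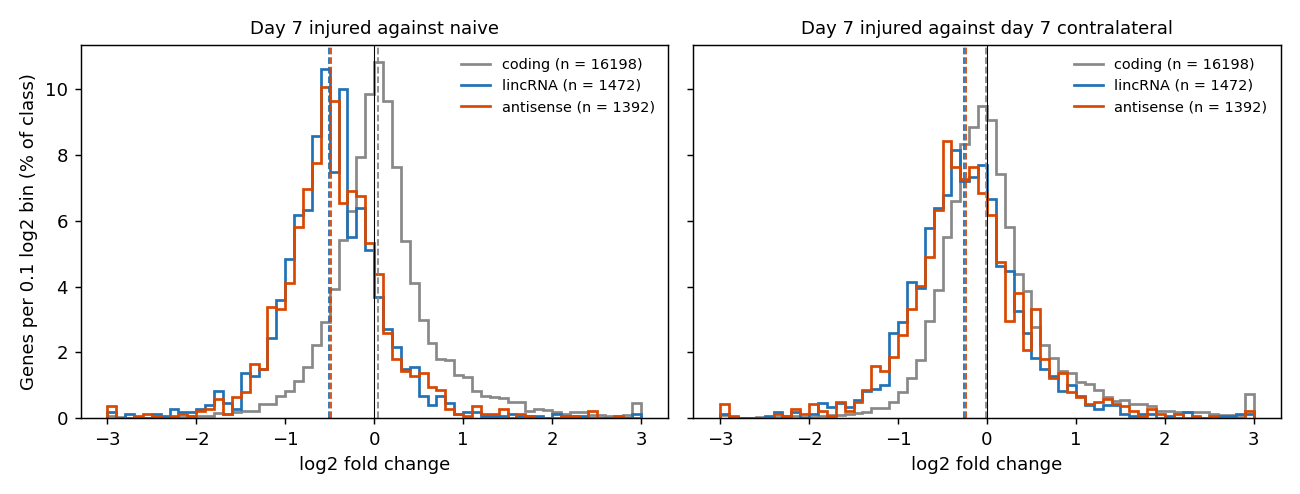
Distribution of log2 fold changes at day 7 for protein-coding, lincRNA and antisense genes, against naïve (left) and against contralateral libraries (right), as the share of each class per narrow bin on the log2 scale; dashed lines mark class medians and more extreme values are drawn in the end bins. Antisense and lincRNA genes almost coincide and sit left of the coding genes, with medians of -0.48 and -0.50 against naïve and -0.24 and -0.25 against contralateral libraries.

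Lower calls were also frequent among members that share no exon with the other strand. Among the 510 members without exonic overlap 94 were called lower (18.4%) and 3 higher, with a median of -0.54, compared with 98 lower and 17 higher of 755 with partial overlap and 12 lower and 2 higher of 127 with overlap of 50% or more. Among the 485 members that averaged 1 CPM or more, 122 were called lower and 11 higher, and among the 907 scarcer ones 82 and 11, while the medians were -0.47 and -0.49. Values of every injured library lay below every naïve library in 153 of the 204 lower members, and above it in 15 of the 22 higher members; over all genes 4.39% were called lower and 9.68% called higher with groups apart in this way. Leaving out 1 library at a time gave 13 to 20 higher and 134 to 228 lower members, and the lowest pair, 13 and 134, came without day 7 injured replicate 3.

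Against naïve libraries, most members that rose start at or near the start of the coding gene, and most that fell lie inside it. Of the 22 higher members, 15 overlapped the coding gene 5′ end to 5′ end and 2 began near its start without overlap, although these positions make up 316 and 32 of the 1392 members. Members inside a coding gene gave 3 higher and 130 lower calls of 721, members that overlap 3′ to 3′ gave 2 and 30 of 233, spanning members 0 and 6 of 46, and members without a partner 0 and 6 of 44. Members that overlap 5′ end to 5′ end gave 32 lower calls of 316 (10.1%), more than their 15 higher ones, and their median was -0.37. No member of the 32 near a coding start was called lower, and their median was -0.21. Against day 7 contralateral libraries the pattern differed. Members that overlap 5′ end to 5′ end gave 7 higher and 16 lower calls of 316 (5.06% lower). Members inside a coding gene gave 9 and 18 of 721 (2.50% lower), and those near a coding start 2 and 1 of 32. The differences between these classes are counts without a test.

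**Figure D3:**
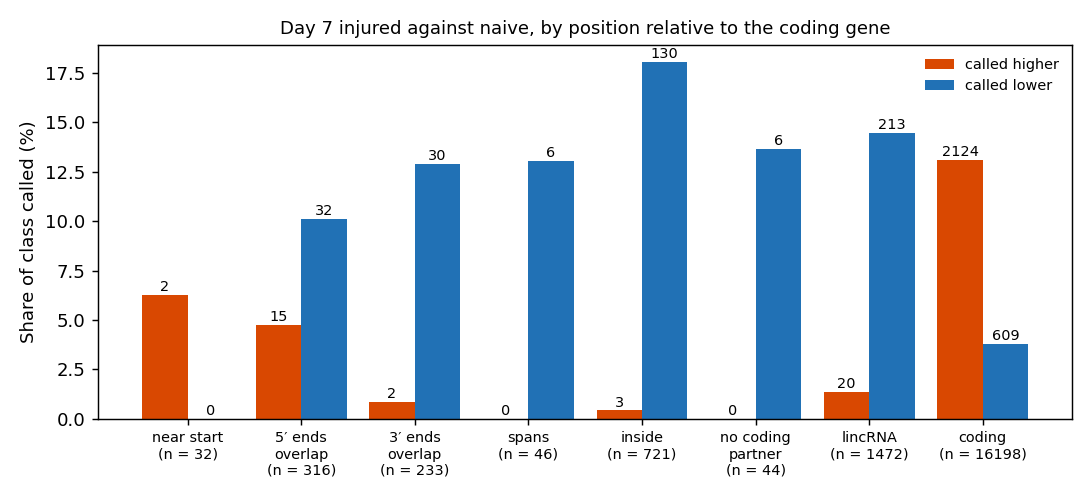
Share of each class called higher (orange) or lower (blue) at day 7 against naïve libraries (%, y axis, bars from 0), for antisense genes by position relative to the coding gene and for lincRNA and coding genes; the number above each bar is the count of genes called and n the class size. Most higher calls are where starts lie together (15 of 316 and 2 of 32), and lower calls are most frequent inside coding genes (130 of 721).

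Markers of other cells moved at day 7 as well. The 8 markers of synovial and other fibroblasts, led by Col1a1, summed to 16133 to 27557 CPM in naïve and to 101200, 94910 and 109307 CPM in day 7 injured libraries, and 6 of 8 were called higher. The 7 erythroid markers, led by Hbb-bs, summed to 30726 to 41226 CPM in naïve and to 27579, 23223 and 16705 CPM in day 7 injured libraries, with 4 called lower. The 8 neutrophil and marrow myeloid markers, led by Ngp, summed to 9964 to 14668 CPM in naïve and to 10667, 8127 and 7771 CPM in day 7 injured libraries, with 2 called lower. Of the chondrocyte list 4 of 12 were called higher and 1 lower, of the osteoblast and osteocyte list 1 and 1 of 8, of the endothelial list 3 and 0 of 5, of the adipocyte list 0 and 2 of 5, and of the B cell list 0 and 1 of 6. None of 7 macrophage and none of 7 skeletal muscle markers was called. The part of such cells in the members' changes was not tested.

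Of the 10 members with the largest rises and groups apart, 4 exceeded 1 CPM in every day 7 injured library. C230034O21Rik (chr3:38874570-38888259, minus strand, opposite the 5′ end of Fat4, an atypical cadherin of planar cell polarity and Hippo signalling) had 2.02 (lowest), 2.26 (median) and 3.21 CPM (highest) in the 6 naïve libraries, 10.8, 13.7 and 14.2 CPM in the day 7 injured and 4.38, 2.14 and 1.62 CPM in the day 7 contralateral libraries. All injured values lay above all others, and the change was large against both controls (log2 fold change 2.42 ± 0.21 SE, FDR = 6.87e-07 against naïve; log2 fold change 2.30 ± 0.33 SE, FDR = 9.25e-05 against contralateral). Fat4 itself had 33.7 (lowest), 37.0 (median) and 45.0 CPM (highest) in naïve and 166, 244 and 265 CPM in day 7 injured libraries and changed by 2.58 ± 0.15 SE (FDR = 1.42e-08) on the log2 scale. The member and Fat4 rose by the same order, with exons that overlap over 42.6% of the member's length.

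C130021I20Rik (chr2:33641193-33646354, plus strand) lies beside Lmx1b, the LIM homeobox gene of dorsal limb identity, without exonic overlap. It had 0.298 (lowest), 0.862 (median) and 1.74 CPM (highest) in naïve libraries, 5.33, 5.03 and 6.86 CPM in day 7 injured and 1.51, 0.759 and 0.878 CPM in day 7 contralateral libraries. The injured libraries were clear of both control groups (log2 fold change 2.48 ± 0.34 SE, FDR = 6.5e-05 against naïve; log2 fold change 2.51 ± 0.44 SE, FDR = 0.00056 against contralateral). Lmx1b rose with it by 1.32 ± 0.22 SE (FDR = 0.000315) on the log2 scale, from 0.726 (lowest), 1.00 (median) and 1.18 CPM (highest) in naïve to 2.14, 1.76 and 3.29 CPM in injured libraries.

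Gm26633 (chr7:79018053-79053323, minus strand) starts head to head with Acan, which encodes aggrecan, the proteoglycan that gives cartilage its resistance to compression. Counts of Gm26633 were 3.53 (lowest), 4.4 (median) and 8.62 CPM (highest) in naïve, 9.74, 10.6 and 13.8 CPM in day 7 injured and 2.31, 3.66 and 3.98 CPM in day 7 contralateral libraries. The lowest injured library lay just above the highest naïve one and well above the contralateral ones (log2 fold change 1.12 ± 0.24 SE, FDR = 0.00258 against naïve; log2 fold change 1.75 ± 0.31 SE, FDR = 0.000562 against contralateral). Acan had 248 (lowest), 348 (median) and 586 CPM (highest) in naïve and 952, 1057 and 1254 CPM in injured libraries and rose by 1.57 ± 0.20 SE (FDR = 3.2e-05). Gm26633 was the only kept member whose partner is on the list of cartilage matrix genes.

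Gm10561 (chr1:55226251-55235622, plus strand, opposite the 5′ end of Rftn2, a raftlin family protein of lipid rafts) had 0.839 (lowest), 0.998 (median) and 1.34 CPM (highest) in naïve, 4.24, 4.09 and 5.05 CPM in day 7 injured and 1.11, 1.38 and 0.979 CPM in contralateral libraries. It was higher in every injured library than in any control library (log2 fold change 2.13 ± 0.17 SE, FDR = 2.44e-07 against naïve; log2 fold change 1.94 ± 0.21 SE, FDR = 5.59e-06 against contralateral). Rftn2 changed by 1.51 ± 0.14 SE (FDR = 1.12e-06), and the ratio of the member to Rftn2 by 0.58 ± 0.21 SE (FDR = 0.0597), which did not pass the FDR threshold.

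6330403L08Rik, opposite the start of the growth factor gene Pdgfa, had 5.54 (lowest), 8.03 (median) and 8.92 CPM (highest) in naïve, 11.02, 13.97 and 13.99 CPM in day 7 injured and 8.51, 7.5 and 6.52 CPM in contralateral libraries, and was called against both (log2 fold change 0.76 ± 0.18 SE, FDR = 0.00462 against naïve; log2 fold change 0.80 ± 0.21 SE, FDR = 0.012 against contralateral, where the FDR was 0.0542 without day 7 injured replicate 3). Gm4524, at the 3′ end of P3h2, a prolyl 3-hydroxylase of collagen, had 2.01 (lowest), 2.63 (median) and 3.1 CPM (highest), 3.69, 3.59 and 4.59 CPM and 0.875, 1.52 and 2.23 CPM in the same groups (log2 fold change 0.64 ± 0.16 SE, FDR = 0.00698 against naïve; log2 fold change 1.30 ± 0.25 SE, FDR = 0.00145 against contralateral). For both genes the injured group did not overlap either control, but the call of Gm4524 against naïve was lost without day 7 injured replicate 3 (FDR = 0.0579) and, by falling under 1.5-fold, without naïve replicate 5.

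The other members with large rises were scarce. Gm15867 reached 10 counts only in the day 7 injured libraries (20, 12 and 10), with at most 5 in naïve and 7 in day 7 contralateral libraries. It passed the filter through that group alone, so its rise there is not independent of its selection. Gm49643, Gm42609 and AC161119.1 reached 10 counts in too few other libraries to pass without the day 7 injured group. The same limit holds for their rises and calls against naïve and contralateral libraries. Gm49643, at the 3′ end of the potassium channel gene Kcnj15, had 0 (lowest), 0.0579 (median) and 0.175 CPM (highest) in naïve and 0.546, 0.315 and 0.51 CPM in day 7 injured libraries (log2 fold change 2.46 ± 0.63 SE, FDR = 0.009; DESeq2 gave it no adjusted p), and in contralateral libraries it summed to 1 count against 28 in injured ones, a ratio of 27.2 (95% exact interval 4.49 to 1110) that covers counting error only. Gm15867 (opposite Sertad4; log2 fold change 2.30 ± 0.50 SE, FDR = 0.00303), AC161119.1 (opposite Lox, the lysyl oxidase that cross-links collagen; log2 fold change 1.73 ± 0.32 SE, FDR = 0.000767), Gm42609 (inside Dclk1, a doublecortin-like kinase; log2 fold change 1.61 ± 0.54 SE, FDR = 0.0345), 1700069B07Rik (opposite Usp31, a deubiquitinase; log2 fold change 1.48 ± 0.34 SE, FDR = 0.00459) and Gm44418 (inside Antxr1, a collagen-binding receptor; log2 fold change 1.19 ± 0.38 SE, FDR = 0.0284) were all below 1 CPM in each naïve and each injured library. Their naïve and injured values did not overlap, but against day 7 contralateral libraries only Gm42609 (3.19) and Gm44418 (1.59) of these 5 were called. Gm42609 had 4 counts in all in those libraries against 35 in injured ones, and DESeq2 gave it no adjusted p there. The contralateral call of Gm44418 was lost without day 7 contralateral replicate 1 (FDR = 0.0737). It was also lost without day 7 injured replicate 2 (0.0526) or replicate 3 (0.120). With only the compared groups fitted its FDR was 0.0805, and without a filter 0.058. For AC161119.1, Gm15867 and 1700069B07Rik the highest day 7 contralateral value was in the library that stood apart (0.875, 0.557 and 0.637 CPM). Their other day 7 contralateral values, at most 0.312 CPM, lay below all injured ones. The calls of Gm42609 and Gm44418 against naïve were lost when 1 of several libraries was left out, with FDRs up to 0.108 and 0.130. That of Gm42609 was also lost with offsets for transcript length (FDR = 0.142).

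The remaining higher members against naïve were Prss23os (2.73, inside the serine protease gene Prss23), 2810468N07Rik (1.46, opposite Sox8), A730056A06Rik (1.43, opposite Rgma), BC037039 (1.34), Hotairm1 (1.03), Gm12473 (0.79, opposite the natriuretic peptide receptor Npr2), Gm12500 (0.78), Gm6277 (0.73), A330009N23Rik (0.70) and 4930515G01Rik (0.64, opposite Ankrd13a), all as log2 fold changes. Groups overlapped in 7 of these 10, among them Prss23os, which has the largest fitted change of these 10 and at most 15 counts in an injured library. None of these 10 calls held under every alternative tried. Leaving out 1 library ended the call in 9 of them. Prss23os lost it in 7 such fits (FDRs up to 0.229) and Gm12500 in 7 (up to 0.290). Gm6277 lost it in 8 (up to 0.137) and 2810468N07Rik in 4 (up to 0.189). BC037039 lost it without day 7 injured replicate 1 (FDR = 0.201). A730056A06Rik and A330009N23Rik lost it without replicate 3 (FDRs of 0.0545 and 0.0618). With all 18 libraries fitted, the FDR was 0.204 for BC037039 and 0.0762 for Gm12473. The limma-voom fit gave 0.063 for Prss23os and 0.0723 for Gm12500. Of the 22, all of which had a tested partner, 17 had a partner that was itself called higher.

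**Figure D4:**
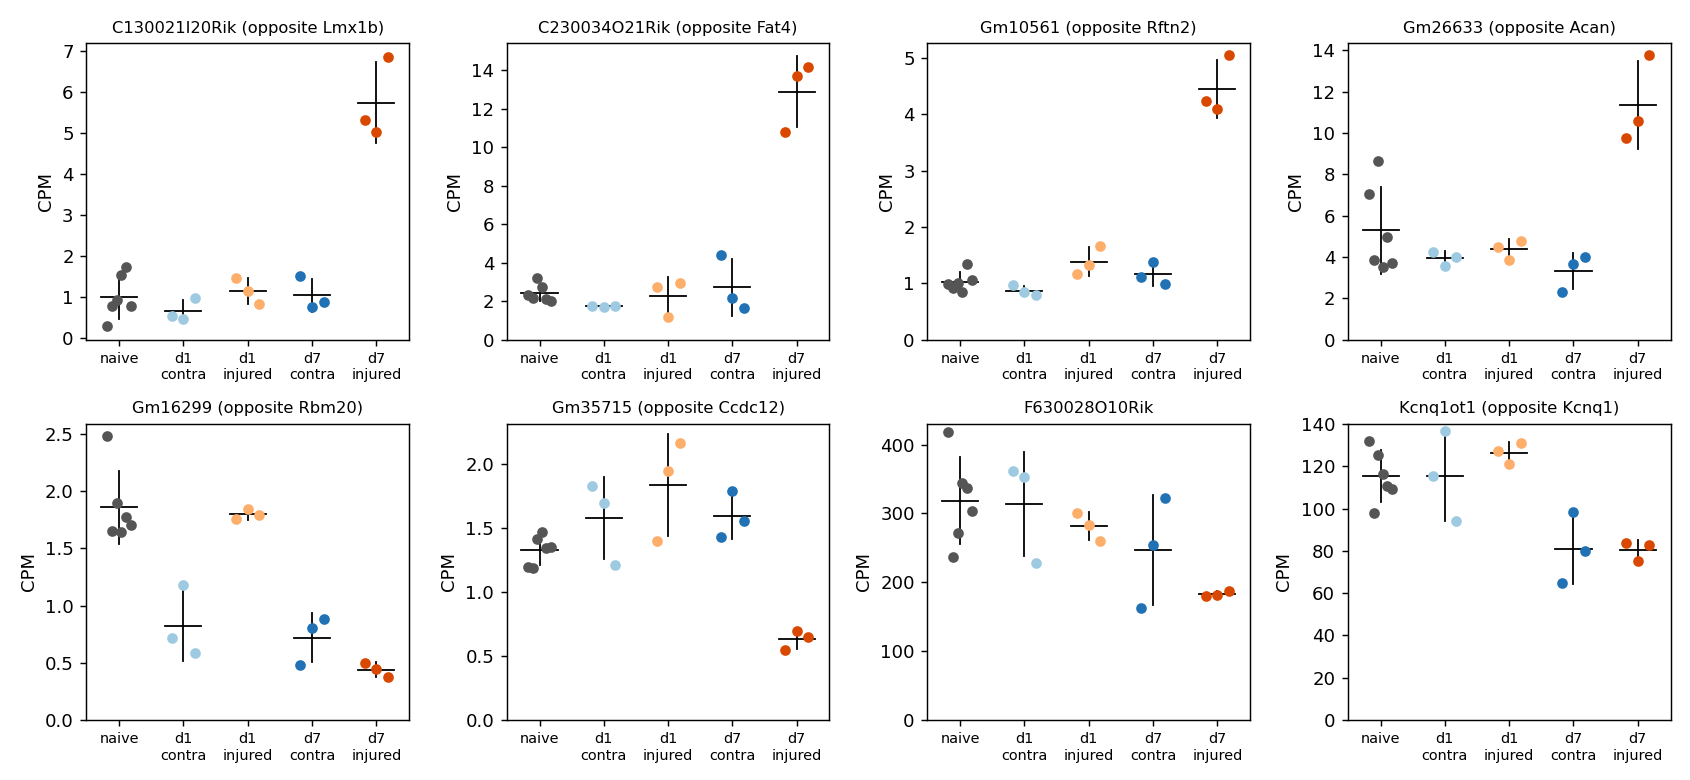
CPM by group for 4 members that rose (top) and for Gm16299, Gm35715, F630028O10Rik and Kcnq1ot1 (bottom), with 1 point per library, a line for the group mean and ± 1 SD; each y axis starts at 0. In the top row the day 7 injured libraries stand above all others; Gm16299 is low in both contralateral groups as well as in day 7 injured knees, and F630028O10Rik falls from 237 to 418 CPM in naïve to 179 to 188 CPM.

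Of the members that fell, the largest fold changes belonged to scarce genes. Gm26714, which spans Tcim, had 0.198 (lowest), 0.262 (median) and 0.597 CPM (highest) in naïve and 0.0455, 0 and 0.0927 CPM in day 7 injured libraries, that is 46 counts in all against 3. The ratio of its counts, corrected for depth, was 0.131 (95% exact interval 0.026 to 0.406), where the interval covers counting error only, and the fitted change (log2 fold change -2.54 ± 0.73 SE, FDR = 0.0173) rests on those few counts. Tcim on the other strand was called higher (0.76).

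Gm15597 (inside the adaptor gene Anks1; -2.46), Gm671 (opposite the keratin gene Krt7; -2.17), Gm36696 (inside Mctp2; -2.15), Gm42809 (opposite the start of Il6ra, the interleukin-6 receptor; -1.77) and Gm20420 (inside the phospholipase gene Pla2g6; -1.77) were at 3 counts or fewer in each injured library. The same held for 9 of the 204 lower members, and for them the log2 fold change depends on the prior count. Gm37571 (at the 3′ end of the centrosomal gene Cep350; log2 fold change -1.91 ± 0.43 SE, FDR = 0.00383), A230083N12Rik (inside the histone demethylase gene Kdm4c; log2 fold change -1.85 ± 0.55 SE, FDR = 0.02) and Gm13856 (at the 3′ end of the nucleotide sugar transporter gene Slc35b4; log2 fold change -1.60 ± 0.46 SE, FDR = 0.0165) were below 1 CPM in each of these libraries too. Krt7 was the only partner among these 8 that was itself called lower (-0.64), and Slc35b4 was called higher (0.60). Leaving out 1 library ended 6 of these 10 calls. The call of Gm15597 was lost without any 1 of 7 libraries (FDRs up to 0.116). That of Gm20420 was lost without any 1 of 5 (FDRs up to 0.114). Calls were also lost without day 7 injured replicate 1 or 2 for Gm26714 (FDR = 0.0605 or 0.0628) and for Gm13856 (FDR = 0.0688 or 0.0665). Without replicate 2 or 3 the call of Gm36696 was lost (FDR = 0.0736 or 0.121). Without replicate 1 that of A230083N12Rik was lost (FDR = 0.0671). Gm671, Gm37571, Gm42809 and Gm16299 were called with each library left out.

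Gm16299 (chr19:53819354-53825128, minus strand), inside the muscle splicing factor gene Rbm20 and free of exonic overlap, was the best measured of the members that fell furthest. It had 1.64 (lowest), 1.74 (median) and 2.49 CPM (highest) in naïve and 0.501, 0.44 and 0.371 CPM in day 7 injured libraries (log2 fold change -2.06 ± 0.26 SE, FDR = 2.54e-05), while Rbm20 fell by 1.11 on the log2 scale. The contralateral knees were low as well, with 0.477, 0.803 and 0.878 CPM at day 7 and 0.716, 1.18 and 0.583 CPM at day 1, against 1.75, 1.85 and 1.79 CPM in injured knees at day 1. Of the day 7 contralateral libraries only replicate 1 (0.477 CPM), the library that stood apart, overlapped the day 7 injured ones. The values of 0.803 and 0.878 CPM lay above all day 7 injured values. The comparison of day 7 injured with day 7 contralateral libraries was not called (log2 fold change -0.77 ± 0.32 SE, FDR = 0.107).

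By length-corrected level, in kallisto's length-scaled unit TPM, the 5 most abundant members in naïve libraries were F630028O10Rik (mean 56.0 TPM), Gm47551 (50.3 TPM), Gm20628 (43.1 TPM), Tug1 (20.4 TPM) and Gm16024 (19.5 TPM). Levels of Gm47551 and Gm16024 are less sure, since they have only 165 and 171 exonic bases. F630028O10Rik (chrX:96239926-96243636, plus strand) contains the hairpin of miR-223, a microRNA known from the myeloid lineage, on its own strand. Both mature arms, from RefSeq on GRCm38.p6 with the seed (bases 2 to 8) in capitals, are shown because the host is the most abundant member and fell.
mmu-miR-223-3p: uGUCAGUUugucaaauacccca
mmu-miR-223-5p: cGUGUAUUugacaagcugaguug

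F630028O10Rik had 237 (lowest), 319.7 (median) and 418 CPM (highest) in naïve, 179, 182 and 188 CPM in day 7 injured and 163, 254 and 323 CPM in day 7 contralateral libraries. All injured libraries were below all naïve ones (log2 fold change -0.78 ± 0.17 SE, FDR = 0.00241), but 1 contralateral library, the one that stood apart, was lower still, and the injured against contralateral comparison was not called (log2 fold change -0.43 ± 0.23 SE, FDR = 0.204). Of the neutrophil and marrow myeloid markers given above 2 of 8 were called lower, with summed levels that overlapped the naïve range, and their part in this fall was not tested. These are libraries of total RNA, so the values are those of the host transcript and not of the microRNA. Of 8 members that hold a RefSeq microRNA hairpin on their own strand (9 hairpins), F630028O10Rik was the 1 that was called, and it was called lower, as were 14.7% of all members and 6.02% of all genes.

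Tug1, a widely expressed long noncoding RNA that starts opposite Morc2a, had 144 (lowest), 155 (median) and 164 CPM (highest) in naïve and 168, 184 and 178 CPM in day 7 injured libraries. The injured libraries were all higher (log2 fold change 0.22 ± 0.06 SE, FDR = 0.0185), but the change stayed under 1.5-fold and is not counted as a call. Gm47551, inside Fcho2, was lower (log2 fold change -0.98 ± 0.16 SE, FDR = 0.000356), but with all 18 libraries fitted it was not called (FDR = 0.058). Gm20628, which spans the histone gene Hist2h3b, had 234 (lowest), 248 (median) and 319 CPM (highest) and 192, 194 and 187 CPM, and did not pass the FDR threshold (log2 fold change -0.41 ± 0.16 SE, FDR = 0.0731). Gm16024 did not either (log2 fold change 0.13 ± 0.23 SE, FDR = 0.714). Of the 20 members at 10 CPM or more, 16 lay below 0, 2 were called lower and none higher, the 2 being F630028O10Rik and Gm47578 (43.0 ± 6.63 SD CPM in naïve, 27.7 ± 2.94 SD CPM in day 7 injured libraries; log2 fold change -0.62 ± 0.12 SE, FDR = 0.00175). Over all members 14.7% were called lower and 1.58% higher, and over all genes 6.02% and 10.3%.

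Of 4 kept antisense genes of the Hox clusters, which pattern the body axis and the limb, Hotairm1 was called higher, with 0.298 (lowest), 0.37 (median) and 0.426 CPM (highest) in naïve and 0.911, 0.503 and 0.834 CPM in day 7 injured libraries and no overlap between them (log2 fold change 1.03 ± 0.36 SE, FDR = 0.04). The call is marginal: it was lost when any of 8 of the 9 libraries was left out, with FDRs from 0.0514 to 0.149, and the FDR was 0.322 with offsets for transcript length. Hoxd3os1 (0.73), Hoxb3os (-0.29) and Hoxaas3 (-0.26) were not called. Over all members 1.58% were called higher and over all genes 10.3%, and 4 genes are too few to set against either.

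Of 12 kept antisense genes of developmental transcription factors, 2 were called lower against naïve (16.7%) and none higher, a share near the 14.7% of all members that were called lower, where all genes gave 6.02%. Vax2os had 0.264 (lowest), 0.577 (median) and 0.846 CPM (highest) in naïve and 0.273, 0.252 and 0.185 CPM in day 7 injured libraries, with groups that overlapped (log2 fold change -1.23 ± 0.42 SE, FDR = 0.0385). Runx2os2, inside the osteoblast and chondrocyte transcription factor gene Runx2, had 1.39 (lowest), 1.74 (median) and 2.14 CPM (highest) and 1.09, 0.503 and 1.02 CPM with no overlap (log2 fold change -0.95 ± 0.25 SE, FDR = 0.0105), while Runx2 itself was not called (log2 fold change 0.00 ± 0.10 SE (FDR = 0.986)). The day 7 contralateral libraries were as low as the injured ones for Runx2os2 (0.557, 0.759 and 1.11 CPM), and it was not called against them (0.08). Emx2os, at the start of the limb and urogenital homeobox gene Emx2, was called higher against contralateral libraries (log2 fold change 1.34 ± 0.42 SE, FDR = 0.0358) and not against naïve ones (0.71). That call was lost with limma-voom (FDR = 0.0541), with only the compared groups fitted (0.103) and without any 1 of 4 libraries (up to 0.144). The median over the 12 was -0.57, beside -0.04 over all genes.

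Of the imprinted antisense genes 3 were kept, and at day 7 none was called in injured libraries against naïve or contralateral ones. Kcnq1ot1, the long transcript that silences neighbours of Kcnq1 on one parental chromosome, had 98.0 (lowest), 114 (median) and 132 CPM (highest) in naïve and 83.6, 75.3 and 82.8 CPM in day 7 injured libraries. All injured values were lower (log2 fold change -0.50 ± 0.11 SE, FDR = 0.00252), yet the change was under 1.5-fold. The day 7 contralateral libraries had 64.7, 98.5 and 80.0 CPM. The first is the library that stood apart, and the second lay within the naïve range. Injured against contralateral libraries gave a log2 fold change of -0.01 ± 0.15 SE (FDR = 0.975). Airn (0.09) and Nespas (-0.36) were not called while their partners Igf2r, the receptor that clears IGF2 (1.33 ± 0.10 SE (FDR = 2.32e-07)), and Gnas, the stimulatory G protein (0.91 ± 0.08 SE (FDR = 1.13e-06)), both rose. No gene of the list of small RNA host genes was kept as a member.

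Few members lie beside listed genes of the extracellular matrix or of growth factor signalling, so the counts below are read beside the shares of 1.58% higher and 14.7% lower over all members and of 10.3% and 6.02% over all genes. Of 4 members with a fibrous matrix partner 1 was called higher against naïve, AC161119.1, although all 4 partners rose. Col12a1, a fibril-associated collagen, rose by 3.20 on the log2 scale and 4930562D21Rik inside it, which shares no exonic base with it, differed by 0.97, which did not pass the threshold (FDR = 0.122). Against contralateral libraries 4930562D21Rik was called (log2 fold change 1.81 ± 0.60 SE, FDR = 0.0425), but not without day 7 contralateral replicate 1 (FDR = 0.0943) or any 1 of 4 other libraries (FDRs up to 0.170). Gm12963 beside Col16a1 (1.22) and Gm12200 inside Adamts2, the procollagen N-proteinase (-0.61), were not called, where their partners rose by 2.85 and 1.33.

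None of 4 members with a partner on the list of growth factor signalling genes was called, and 3 of the 4 partners were called higher. Pdgfa, opposite the higher member 6330403L08Rik, is not on that list. With the shares just given, a count of 0 among 4 members is no result about them. Igf1os, opposite the gene of insulin-like growth factor 1, had 0.489 (lowest), 0.613 (median) and 0.895 CPM (highest) in naïve and 0.911, 0.566 and 0.927 CPM in day 7 injured libraries, with groups that overlapped (log2 fold change 0.34 ± 0.32 SE, FDR = 0.441). Igf1 went from 72.3 (lowest), 76.9 (median) and 111 CPM (highest) to 492, 670.3 and 728 CPM, a log2 fold change of 2.96 ± 0.14 SE (FDR = 2.07e-09), so that the ratio of Igf1os to Igf1 fell by 2.68 ± 0.38 SE on the log2 scale (FDR = 0.00032). Gm16159 inside Fgfr1 (0.07), Gm17110 inside Bmpr1a (-0.39) and Gm15222 inside Bmp4 (0.03) were not called.

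Of 17 members beside skeletal transcription factor genes, 2 were called higher against naïve (C130021I20Rik and 2810468N07Rik) and 1 lower (Runx2os2), and their 14 distinct partners gave 5 higher and 0 lower calls. The members' shares, 11.8% higher and 5.88% lower, are close to those over all genes (10.3% and 6.02%). Against contralateral libraries 4 of the 17 were called higher (23.5%), beside 9.14% of all genes and 1.58% of all members. These were C130021I20Rik, Gm15283 spanning Hif1a, the hypoxia factor (log2 fold change 1.45 ± 0.33 SE, FDR = 0.00483), Gm20471 inside the mesenchymal homeobox gene Prrx1 (log2 fold change 1.91 ± 0.56 SE, FDR = 0.0232) and Gm43120 inside Tbx15 (log2 fold change 1.62 ± 0.53 SE, FDR = 0.0416). Gm20471 and Gm43120 were under 1 CPM in each library of these groups. Without day 7 contralateral replicate 1 the change of Gm20471 was 1.59 (FDR = 0.0427) and that of Gm43120 was 1.27 (FDR = 0.0648), which is no longer a call. The call of Gm20471 was lost without day 7 injured replicate 1 (FDR = 0.0588) or replicate 2 (0.0697), and that of Gm43120 without any 1 of 3 other libraries (FDRs up to 0.122). With only the 2 compared groups fitted neither was called (FDR = 0.137 and 0.211). Gm15283 was called in each of these fits. The 3 members inside Runx2 share 1 partner and Sox6os and Gm45025 share Sox6, so these are not independent loci.

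The second question is how members moved relative to the coding gene on the opposite strand. Over 1283 members with a tested partner the median log2 fold change at day 7 against naïve was -0.48 for the members and 0.06 for the partners, and 1077 members lay below their partner. Across these genes the log2 fold changes of member and partner correlated with Pearson's r = 0.33 (Spearman's rho 0.27). The coefficient was 0.35 over the 446 members without exonic overlap, 0.35 over 715 with partial overlap and 0.36 over 122 with overlap of 50% or more. Genes are not independent replicates, and both values of a pair come from the same libraries with the same normalization. Members whose partner was called higher had a median of -0.23 (17 higher and 11 lower of 183), those whose partner was not called -0.50 (5 and 174 of 1067), and those whose partner was called lower -0.61 (0 and 4 of 33).

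**Figure D5:**
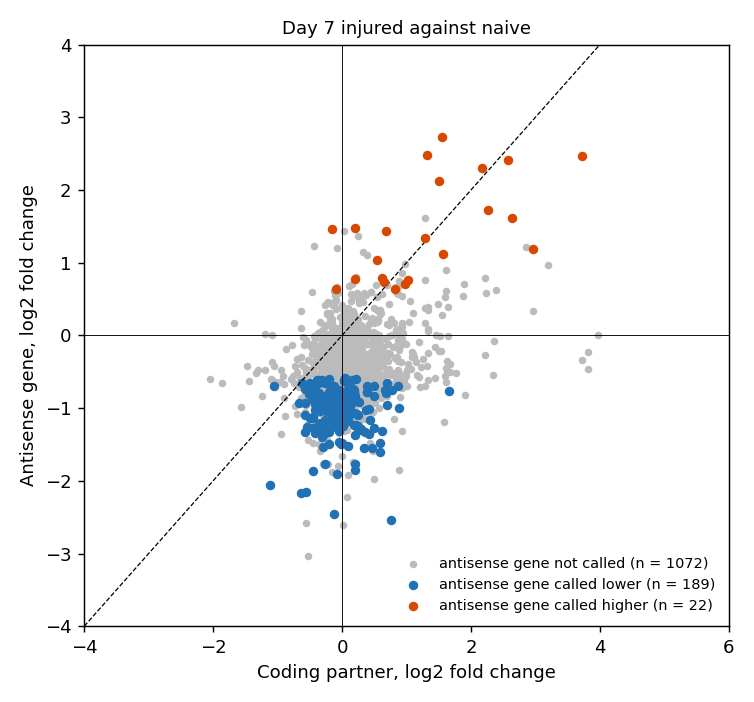
Log2 fold change at day 7 against naïve of each antisense gene (y axis) and of its coding partner (x axis), 1 point per member with a tested partner (n = 1283), coloured by the call of the member; the dashed line marks equal change. Of the points 1077 lie below the dashed line, and 17 of the 22 higher members have a partner called higher.

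The ratio of member to partner was tested in each overlapping pair as a difference of log2 CPM with limma, over 4068 pairs of kept genes on opposite strands. Of the 1255 pairs of an antisense member with its coding partner, 305 ratios were called lower in day 7 injured than in naïve libraries and 5 higher, where 16.6% of all pairs were called lower and 4.84% higher. The median change was -0.51 for these pairs and -0.27 over all pairs, and for 1611 pairs of coding genes it was 0.01, with 172 higher and 161 lower. Without exonic overlap, 134 of 419 pairs were called lower and 1 higher. By position, 197 of 702 pairs with the member inside the coding gene were called lower, 55 of 302 with overlapping 5′ ends, 45 of 213 with overlapping 3′ ends and 8 of 38 where the member spans the partner. A lower ratio does not say which gene of the pair changed, and where the strand of reads was not used, the members' counts may hold reads of the partner. The prior count of 2, added before the log, draws changes of scarce members towards 0. A ratio can therefore be lower or higher than the 2 fitted changes imply. For Gm49643 and Kcnj15 these were 2.46 and 3.73 with a ratio of -1.81, and for Gm26714 and Tcim -2.54 and 0.76 with a ratio of -2.41.

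Among pairs in which both genes averaged 1 CPM or more, the ratios that fell furthest were those of partners that rose. Gm20631 inside Hmcn1, the extracellular matrix gene of hemicentin 1, had 1.1 (lowest), 1.44 (median) and 1.89 CPM (highest) in naïve and 0.956, 0.629 and 1.44 CPM in day 7 injured libraries and was not called (log2 fold change -0.54 ± 0.24 SE, FDR = 0.106), while Hmcn1 rose by 2.34 ± 0.23 SE (FDR = 2.34e-06), and the ratio changed by -2.95 ± 0.31 SE (FDR = 3.02e-05). The other 4 were Gm43150 with Medag, an adipogenesis gene (ratio -2.52 ± 0.42 SE (FDR = 0.00096)), BC001981 with Serf1 (ratio -2.33 ± 0.36 SE (FDR = 0.000683)), Gm17690 with Mtmr11 (ratio -2.05 ± 0.16 SE (FDR = 2.86e-06)) and Hectd2os with the ubiquitin ligase gene Hectd2 (ratio -1.86 ± 0.33 SE (FDR = 0.00173)). In all 5 the partner was called higher, and only BC001981 (-0.76) and Hectd2os (-1.48) of the members were themselves called lower.

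The ratio rose in 2 such pairs, of the 5 called higher in all, a number that was 3 without naïve replicate 1 or naïve replicate 3. For 4930515G01Rik and Ankrd13a the member was called higher (log2 fold change 0.64 ± 0.22 SE, FDR = 0.0414; ratio 0.67 ± 0.23 SE (FDR = 0.0463)) with naïve and injured values that overlapped (0.746 (lowest), 0.961 (median) and 1.19 CPM (highest) against 1.64, 1.07 and 1.71 CPM). The member's call was lost with DESeq2 (adjusted p = 0.0709) and with transcript length offsets (FDR = 0.0531). It was also lost without a filter (FDR = 0.0918), with all 18 libraries (0.0749) and without any 1 of 5 libraries (up to 0.174). For Gm26982 and Ghrl, the ghrelin gene, the member did not pass the threshold (0.02) and the partner was called lower (-1.20 ± 0.33 SE (FDR = 0.0136)), so that the ratio rose by 1.24 ± 0.32 SE (FDR = 0.0124).

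Against the contralateral knees of the same day, fewer members differed. In that comparison 22 members were called higher (1.58%) and 43 lower (3.09%), where 9.14% of all genes were called higher and 3.47% lower. The median over the members was -0.24, beside -0.06 over all genes and -0.25 over lincRNA genes, for which 21 were called higher and 49 lower. Without day 7 contralateral replicate 1, 20 members were called higher and 32 lower. The counts also depend on the injured libraries: without day 7 injured replicate 3 there were 12 higher and 23 lower, and without replicate 2 there were 17 and 21. Both comparisons share the injured libraries. Lower calls against contralateral knees fell further with only the compared groups fitted and with limma-voom, as the last section gives. Higher calls also fell with only the compared groups fitted and with DESeq2. The lower members without exonic overlap numbered 14 of 510.

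Gm35715 (chr9:110669329-110674954, minus strand), inside Ccdc12 and without exonic overlap, was one of those lower in both. It had 1.19 (lowest), 1.34 (median) and 1.47 CPM (highest) in naïve, 0.546, 0.692 and 0.649 CPM in day 7 injured and 1.43, 1.78 and 1.55 CPM in day 7 contralateral libraries. No value of the injured group reached either control (log2 fold change -1.07 ± 0.22 SE, FDR = 0.00192 against naïve; log2 fold change -1.35 ± 0.24 SE, FDR = 0.000592 against contralateral), and Ccdc12 was not called (log2 fold change 0.19 ± 0.10 SE (FDR = 0.157)).

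At day 1 no member was called, against either naïve or contralateral knees, and 0% of all genes was called in these comparisons, so the background is 0 for each. Of the 1392 members, 53 had an unadjusted p under 0.05 against naïve and 43 against contralateral knees, beside 976 and 1400 of all 21525 genes, with lowest FDRs of 0.987 and 0.760, and DESeq2 and limma-voom called none either. The members' medians were slightly above 0, at 0.08 and 0.06, and those of lincRNA genes at 0.10 and 0.07. Between day 7 contralateral and naïve knees edgeR likewise called none of the members and 0% of all genes, and limma-voom called none. The median was -0.27, beside -0.02 over all genes and -0.27 over lincRNA genes. An unadjusted p under 0.05 was found for 200 members (14.4%), no larger a share than the 15.6% over all genes. DESeq2 called 4 of the 1390 members to which it gave an adjusted p (0.288%), beside 0.144% of all genes. They were Gm16299 at -1.29, Gm15261 at -1.26, Gm26571 at 1.96 and Gm15491 at 4.46 on the log2 scale. These 4 are named because they are all the members that DESeq2 called.

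Between the injured knees of day 7 and day 1, 12 members were called higher and 228 lower, where 8.94% of all genes were called higher and 6.22% lower. The median over the members was -0.56, beside -0.01 over all genes and -0.60 over lincRNA genes. Without exonic overlap there were 3 higher and 106 lower of 510. This comparison shares the day 7 injured libraries with the ones above. Lower calls fell by more than 1.5 times without day 1 injured replicate 2 (140), day 1 injured replicate 3 (133), day 7 injured replicate 1 (142) or day 7 injured replicate 2 (144), and higher calls stayed between 10 and 13. Of the named members, 10 were called higher at day 7. These were C230034O21Rik (log2 fold change 2.54 ± 0.26 SE, FDR = 9.94e-06), Gm10561 (log2 fold change 1.71 ± 0.20 SE, FDR = 2.54e-05), Gm26633 (log2 fold change 1.40 ± 0.29 SE, FDR = 0.00287), C130021I20Rik (2.32), Gm15867 (2.45), Gm49643 (2.12), AC161119.1 (1.86), A730056A06Rik (1.85), 4930515G01Rik (0.90) and A330009N23Rik (0.86). Gm15867 passed the filter through the day 7 injured libraries alone, and Gm49643 and AC161119.1 could not have passed without them. Their calls here are therefore not independent of their selection. Another 14 named members were called lower. They include Gm16299 (log2 fold change -2.01 ± 0.28 SE, FDR = 0.000131), Gm35715 (log2 fold change -1.52 ± 0.24 SE, FDR = 0.000345) and Kcnq1ot1 (log2 fold change -0.63 ± 0.12 SE, FDR = 0.00171). The remaining ones were Gm26714 (-2.63), Gm671 (-2.60), Gm36696 (-2.27), Gm13856 (-2.01), A230083N12Rik (-1.94), Gm42809 (-1.69), Vax2os (-1.60), Hectd2os (-1.49), Runx2os2 (-0.85), Gm47551 (-0.85) and F630028O10Rik (-0.60). Leaving out 1 library ended the higher calls of Gm49643 (FDRs up to 0.137) and 4930515G01Rik (up to 0.0869). It also ended the lower calls of Gm26714, Gm36696, A230083N12Rik, Gm42809, F630028O10Rik, Hectd2os, Vax2os and Runx2os2, with FDRs between 0.0571 and 0.147. With all 18 libraries fitted the calls of Gm47551 (FDR = 0.150) and A330009N23Rik (FDR = 0.0914) were lost as well.

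Whether the effect of injury differed between the days was tested as the difference of injured minus contralateral at day 7 and at day 1. Of all genes 3.6% were called in this contrast, 3.37% with a larger value at day 7 and 0.228% with a smaller one. Of the 1392 members 7 were called, 5 larger and 2 smaller. The 5 were Gm49643 (log2 fold change 5.17 ± 1.32 SE, FDR = 0.0362), C230034O21Rik (log2 fold change 1.92 ± 0.47 SE, FDR = 0.0262), Gm26633 (log2 fold change 1.60 ± 0.43 SE, FDR = 0.0441), Gm10561 (log2 fold change 1.27 ± 0.30 SE, FDR = 0.0231) and Gm26782 (log2 fold change 0.76 ± 0.18 SE, FDR = 0.0257). The 2 smaller were Gm16299 (log2 fold change -1.91 ± 0.41 SE, FDR = 0.0124) and Gm35715 (log2 fold change -1.57 ± 0.31 SE, FDR = 0.00784). Gm49643 could not have passed the filter without the day 7 injured libraries, so its call here is not independent of its selection. The number of calls was 13 without day 7 contralateral replicate 1, 3 without day 1 contralateral replicate 3, 3 without day 1 injured replicate 1 and 2 without day 7 injured replicate 3.

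Gm26782, opposite the start of the telomerase-associated protein gene Tep1, was among the better measured of these, with 10.3 (lowest), 12.6 (median) and 13.6 CPM (highest) in naïve, 15.9, 18.3 and 19.7 CPM in day 7 injured and 8.51, 10.8 and 11.5 CPM in day 7 contralateral libraries. The injured libraries were above all controls, by log2 fold change 0.80 ± 0.13 SE, FDR = 0.000304 against contralateral, and by less than 1.5-fold against naïve (log2 fold change 0.56 ± 0.10 SE, FDR = 0.000449). For Gm16299 the injury effect was positive at day 1 (log2 fold change 1.14 ± 0.24 SE, FDR = 0.76) and negative at day 7 (log2 fold change -0.77 ± 0.32 SE, FDR = 0.107), neither of which was called on its own. Tep1 differed by -0.02 ± 0.14 SE (FDR = 0.938) between injured and contralateral libraries at day 7.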

How the data were processed

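Total RNA of 18 cartilage libraries was sequenced by the authors with a stranded, ribosomal RNA-depleted kit. The authors made each estimated count per transcript with kallisto and deposited it unnormalised. TPM values, which the authors' kallisto run scaled by effective transcript length and to the same total in each library, were deposited beside them with the transcript lengths as other columns. The submitters' processing notes list a human build, whereas the transcript identifiers are mouse and the study names GRCm38. Of 137436 transcripts 135051 matched GENCODE M21 and were summed by gene; unmatched ones held 0.674% to 3.91% of counts. Sums were rounded and tested in R 4.3.3 with edgeR 4.0.16 (TMM, quasi-likelihood, Benjamini-Hochberg over all genes; called at FDR of at most 0.05 and 1.5-fold). CPM are TMM-normalised. Ratios of opposite-strand genes were tested with limma 3.58.1 on log2 CPM (prior count 2). DESeq2 1.42.0, limma-voom, other normalisations, filters, thresholds and sample sets, and leaving out each library, were alternatives. The tests were tested on simulated data, but the outcome is not shown and no result here rests on it. No library pair had the same counts in more than 2.08% of genes. No batch is given in the labels.

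The members and lists were chosen with earlier results of these data known. Named genes were the 10 members with the largest change each way among calls with groups apart in the day 7 against naïve comparison, the 5 most abundant by TPM, the ratios that changed most with both genes at 1 CPM or more, and the members on the gene and partner lists. The 7 members called for the difference between days exceed the 5 that the rule allows, and these 7 and the other members called higher were named after their values were seen. Gm47578 and the 4 DESeq2 calls were also named after their values were seen.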

Additional observations from a re-analysis of the deposited data

Results flagged for a closer look

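In 25 genes the 6 naïve libraries were examined for 1 library far from the others, and 3 stood apart, where chance flags about 1 in 20 such groups. Gm36696 reached 0.513 CPM in naïve replicate 5, whereas the others lay between 0.198 and 0.315 CPM. Gm16299 reached 2.487 CPM in naïve replicate 1, against 1.64 to 1.90 CPM. Gm20628 reached 319 CPM in naïve replicate 3, against 234 to 258 CPM.

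The injury effect (injured minus contralateral) differed between day 7 and day 1 by edgeR's test of the difference itself in 7 members. On the log2 scale the difference was 5.174 for Gm49643 (FDR = 0.0362), 1.924 for C230034O21Rik (FDR = 0.0262), 1.598 for Gm26633 (FDR = 0.0441), 1.275 for Gm10561 (FDR = 0.0231), 0.7609 for Gm26782 (FDR = 0.0257), -1.571 for Gm35715 (FDR = 0.00784) and -1.907 for Gm16299 (FDR = 0.0124). Gm49643 rests on 1 count in the day 7 contralateral libraries. It could not have passed the filter without the day 7 injured libraries, so its difference is not independent of its selection.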

How the results depend on the processing

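Most members have few counts, and pools that share mice cannot be identified, which limits all tests. No paired analysis was possible because the replicate numbers follow accession order and the labels do not say which libraries share mice, although the study's own test modelled shared pools. Against naïve knees at day 7 the calls were 12 higher and 74 lower at an FDR of at most 0.01, 3 and 94 among members without exonic overlap, and 13 to 20 and 134 to 228 with 1 library left out. Against contralateral knees, higher calls numbered 14 with DESeq2, 10 at the stricter FDR, 11 with only the compared groups fitted, 13 without a filter, 9 without exonic overlap and 12 to 22 with 1 library left out, and lower calls 4 at the stricter FDR, 7 with only the compared groups, 16 with limma-voom, 25 without a filter, 26 with transcript length offsets, 14 without exonic overlap and 21 to 50 with 1 library left out. Between the injured knees, higher calls were 3 without exonic overlap and 10 to 13 with 1 library left out, and lower calls 52 at the stricter FDR, 106 without exonic overlap and 133 to 192 with 1 library left out. Day 7 contralateral against naïve gave 4 with DESeq2. The difference between days gave 14 with DESeq2, 1 at the stricter FDR, 3 with only the compared groups, 4 without a filter, 3 without exonic overlap and 2 to 13 with 1 library left out. Lower ratios numbered 148 with both genes at 1 CPM or more, 134 without exonic overlap and 222 to 354 with 1 library left out, and higher ratios 3 with all 18 libraries, 2, 1 and 3 to 7. Fewer members are counted without exonic overlap, and the cause of the other shifts was not tested. Of 676 values for single members under an alternative, 554 kept their direction and side of the threshold, 120 kept their direction and lost the threshold, 1 passed it and 1 reversed: Gm16024 against naïve, at 0.13, was -0.1606 without day 7 injured replicate 2 and 0.4083 without replicate 1.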
